A study of Mus musculus with 8 samples.

Results

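Accessible regions that lay more than 200 kb from every protein-coding gene were examined in ATAC-seq peak lists of cardiac progenitors differentiated from mouse embryonic stem cells. A region was a set of overlapping peaks of 1 list on chromosomes 1 to 19, and it was taken when its strongest summit was over 200 kb from all 20665 RefSeq protein-coding gene intervals of the mm10 assembly. There were 1988 such regions among 42192 in the D7 GLI1 OE list, 1770 among 37973 in the D7 control list and 2691 among 38281 in the D5 control list. Merged across the lists they made 5215 of 69696 regions. All groups came from the line GLI1-FTA of strain A2Lox.cre. The D7 GLI1 OE group had 3 libraries of cells that received doxycycline at 500 ng/ml from day 5 to day 7 of differentiation, for 48 hours, to overexpress GLI1. The D7 control group had 3 libraries of untreated cells at day 7 and the D5 control group 2 libraries of untreated cells at day 5. A group has 1 peak list that pools its libraries, so replicates could not be compared, no p-value between conditions is given and intervals cover counting error only. Doxycycline was given to the GLI1 OE group alone, so the effects of the drug and of GLI1 cannot be told apart. The labels do not say whether the line is 1 clone.

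ATAC-seq marks DNA that the Tn5 transposase can reach, which is mostly promoters and enhancers. GLI1 is a zinc finger transcription factor and a target of Hedgehog signalling, whose ligands bind the receptor Patched and so release Smoothened, which activates the GLI factors. Long stretches without protein-coding genes often flank developmental regulators, and enhancers in them can act on a promoter far away, as is known for Shh, Sox9 and Myc. Distance therefore does not name the target of a region, and the flanking genes below only say where a region lies.

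The labelled cell type was checked through marker genes. Regions lay at or within 1 kb of 6 of 8 cardiac progenitor genes in the D7 GLI1 OE list, where Nkx2-5 and Tbx5 had none, and of all 8 in the D7 control list. The D7 control regions at Nkx2-5 and Tbx5 were weak, with highest folds over background of 3.24 and 4.32, where the lowest of that list was 2.52. At the other 6 genes the highest fold was higher in D7 GLI1 OE, as at Isl1 with 40.4 against 28.1. In the D5 list it was 7 of 8, with none at Hand2. Neural genes had regions at 4 of 4 in every list, and endoderm genes at 4 of 4 in the D7 GLI1 OE list and 3 of 4 in each of the others. Endothelial genes had them at 3, 4 and 2 of 4 in the D7 GLI1 OE, D7 control and D5 lists, and pluripotency genes at 1, 1 and 2 of 4. The part of other cell types in the counts below was not tested. In the D7 lists each fold went with 1 p-value, whereas 30 of 10244 distinct folds in the D5 list had several. The shortest peaks were 200 bp in both D7 lists and 124 bp at D5, and the names of the D7 lists alone say that blacklisted peaks were removed. Differences from D5 therefore include differences in calling.

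Sequence is at hand for the annotated promoters among these regions. RefSeq promoter windows run from 250 bases before to 50 bases after a gene start. Of 31396 windows on the 19 chromosomes, 1023 lay over 200 kb from a protein-coding gene and 65 of these (6.35%) overlapped a region, at 63 non-coding genes. The 6 below, chosen after their values were seen, belong to the strongest region of the D7 GLI1 OE list (Gm26901), to a region with very unequal folds in the D7 lists (LOC115486959), to the gap beside Tbx3 (Gm31129), to the gap beside Shh (Gm35688) and to 2 lncRNA genes named for microRNAs (Mir99ahg and Mir100hg). They are written 5′ to 3′ on the strand of the gene, build GRCm38.p6, which has the coordinates of mm10, and capitals mark a motif match.
Gm26901 (chr1:7398047-7398346, minus strand): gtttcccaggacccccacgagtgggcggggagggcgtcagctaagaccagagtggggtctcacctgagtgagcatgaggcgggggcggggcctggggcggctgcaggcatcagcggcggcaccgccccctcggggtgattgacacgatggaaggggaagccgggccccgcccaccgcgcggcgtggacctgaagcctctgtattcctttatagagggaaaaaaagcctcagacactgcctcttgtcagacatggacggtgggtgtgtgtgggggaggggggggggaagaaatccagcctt
LOC115486959 (chr8:103481889-103482188, plus strand): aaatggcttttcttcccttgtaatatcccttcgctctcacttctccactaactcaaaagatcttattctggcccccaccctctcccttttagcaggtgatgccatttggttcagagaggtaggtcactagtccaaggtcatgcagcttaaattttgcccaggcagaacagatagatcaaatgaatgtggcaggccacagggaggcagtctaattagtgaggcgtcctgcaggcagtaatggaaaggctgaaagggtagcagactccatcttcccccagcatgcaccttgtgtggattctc
Gm31129 (chr5:119133402-119133701, plus strand): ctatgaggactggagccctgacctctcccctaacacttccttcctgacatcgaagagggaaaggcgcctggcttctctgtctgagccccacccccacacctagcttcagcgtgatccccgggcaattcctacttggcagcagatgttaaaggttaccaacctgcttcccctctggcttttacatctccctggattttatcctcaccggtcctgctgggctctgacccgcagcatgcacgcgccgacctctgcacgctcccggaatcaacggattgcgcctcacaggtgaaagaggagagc
Gm35688 (chr5:28903474-28903773, minus strand): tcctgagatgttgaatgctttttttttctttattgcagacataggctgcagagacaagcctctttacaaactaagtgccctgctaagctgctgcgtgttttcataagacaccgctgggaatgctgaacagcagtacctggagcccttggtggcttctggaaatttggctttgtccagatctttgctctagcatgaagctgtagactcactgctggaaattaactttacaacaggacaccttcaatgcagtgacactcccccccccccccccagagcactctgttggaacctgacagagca
Mir99ahg (chr16:77329078-77329377, plus strand): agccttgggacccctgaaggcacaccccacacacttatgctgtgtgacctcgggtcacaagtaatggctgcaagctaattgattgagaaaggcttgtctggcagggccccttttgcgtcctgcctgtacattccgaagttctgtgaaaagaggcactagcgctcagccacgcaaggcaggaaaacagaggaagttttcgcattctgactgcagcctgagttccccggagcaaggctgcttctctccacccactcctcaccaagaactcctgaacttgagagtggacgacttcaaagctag
Mir100hg (chr9:41474643-41474942, plus strand): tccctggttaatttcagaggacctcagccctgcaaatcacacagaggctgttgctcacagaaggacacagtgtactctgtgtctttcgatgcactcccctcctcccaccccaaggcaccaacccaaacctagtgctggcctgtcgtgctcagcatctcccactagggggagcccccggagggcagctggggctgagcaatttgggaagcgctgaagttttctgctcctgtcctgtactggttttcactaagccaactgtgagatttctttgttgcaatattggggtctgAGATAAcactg
The motifs searched on both strands were GACCACCCA, bound by GLI factors, TGTTTAC, bound by forkhead factors, and AGATAA, bound by GATA factors. Of the 6 windows, that of Mir100hg held AGATAA and no other match was found. Over the 65 windows GACCACCCA was in 0 (0.255% of all 31396), TGTTTAC in 3 or 4.62% (3.71% of all) and AGATAA in 13 or 20% (11.2% of all, and 18.3% of the far windows that overlapped no region). A match is a description of letters, and its absence from these windows says nothing of binding. The windows that overlapped a region had a median GC content of 49.7%, against 43.7% in the 958 far windows that did not and 53.0% over all windows. The window of Gm26901 was the richest of the 6, with 65.7% GC and 18 CpG dinucleotides, whereas that of LOC115486959 had 48.7% and 2.

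Few of these remote regions were found in more than 1 list. In all 3 lists were 227 of 5215 (4.35%, 95% interval 3.83 to 4.94), against 24.0% of the regions nearer to genes. Both D7 lists without D5 held 454 (8.71%, against 12.7% of other regions). A further 1112 (21.3%) were in the D7 GLI1 OE list alone, 980 (18.8%) in the D7 control list alone and 2186 (41.9%) at D5 alone, against 20.5%, 15.6% and 22.6% of other regions. The classes that joined D5 with a single D7 list were small, at 164 regions with D7 GLI1 OE (3.14%, against 3.10% of other regions) and 92 with D7 control (1.76%, against 1.48%). Together 82.0% of remote regions and 58.7% of other regions were in 1 list.

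**Figure D1:**
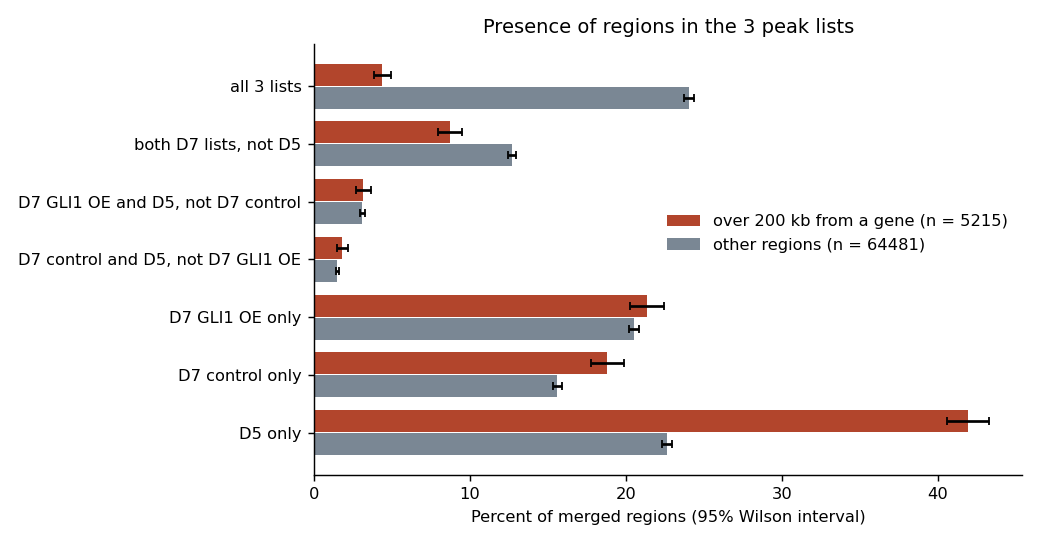
Percent of remote regions (red, n = 5215) and of other regions (grey, n = 64481) in each combination of the 3 peak lists, with 95% Wilson intervals. Remote regions are in all 3 lists in 4.35% of cases and in the D5 list alone in 41.9%.

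The comparison of D7 GLI1 OE with D7 control asked which chromatin differs when GLI1 is overexpressed. Regions of the D7 GLI1 OE list without a D7 control region, called gained, numbered 1278 of 1988 (64.3%, 62.2 to 66.4), where 39.2% of all regions of the list were gained. Regions called lost, found in D7 control but not in D7 GLI1 OE, numbered 1074 of 1770 (60.7%, 58.4 to 62.9), where 31.9% of all were lost. Regions of lower −log10 q were more often absent from the other D7 list, and remote regions were weaker. The authors give each peak a fold over the background. Its median was 4.21 for remote and 5.62 for other regions in the D7 GLI1 OE list, and 4.50 and 6.12 in the D7 control list. Why regions were absent was not tested. When other regions were given the same distribution over 6 bins of −log10 q as the remote ones, 51.4% were gained and 42.0% lost. With both D7 lists brought to equal lengths the order of the shares turned round, to 59.6% gained and 63.1% lost, so which share is higher depends on the lengths of the lists.

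The gap between remote and other regions was wide among well supported peaks. At a −log10 q of 50 or more, 40 of 144 remote regions of the D7 GLI1 OE list were gained (27.8%, 21.1 to 35.6), against 3.17% of other regions. At the same level 17 of 198 remote regions of the D7 control list were lost (8.59%, 5.43 to 13.3), against 1.33%. This level has no upper limit, so peak strength was not equal within it. In the D7 GLI1 OE list the highest −log10 q was 569 for remote regions and 1623 for other regions. Below a −log10 q of 3 the shares were 86.4% gained and 89.3% lost for remote regions, against 75.2% and 73.2% for other regions. Gained remote regions were also in the D5 list in 166 of 1278 cases (13.0%, 11.3 to 14.9) and lost ones in 94 of 1074 (8.75%, 7.21 to 10.6), close to the 13.4% and 8.84% of other regions.

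**Figure D2:**
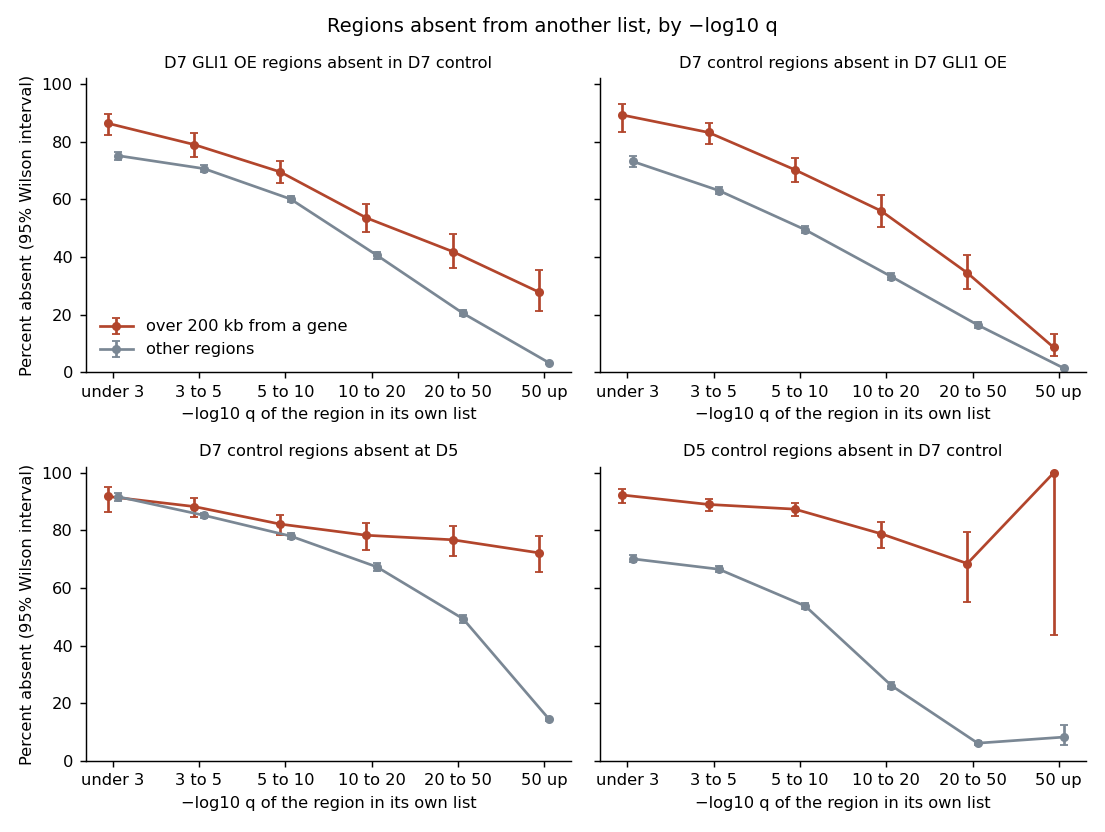
Percent of regions absent from the other list of a pair, by bins of −log10 q in their own list, for remote (red) and other regions (grey), with 95% Wilson intervals. For gained and lost regions the red points lie above the grey in each bin; the last bin of the D5 panel holds only 3 remote regions.

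The strongest remote regions were more frequent in the D7 control list. A fold of at least 20 was reached by 43 of 1988 regions in the D7 GLI1 OE list (2.16%, 1.61 to 2.90) and by 91 of 1770 in the D7 control list (5.14%, 4.21 to 6.27), whereas for other regions the shares were 20.4% and 21.4%. At a fold of at least 10 they were 10.2% in the D7 GLI1 OE list and 14.4% in the D7 control list, against 32.8% and 36.0% of other regions. These thresholds were chosen after the data were seen, and a fold is relative to the background of its own list. Of the 43 strong regions of the D7 GLI1 OE list 9 had no D7 control region (20.9%, against 1.07% of other regions of that fold), and of the 91 of the D7 control list 2 had no D7 GLI1 OE region (2.20%, against 0.142%). One of the 2 lay between Ttll7 and Adgrl2 (chromosome 3, 148530243 to 148531319, fold 21.2 in D7 control).

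**Figure D3:**
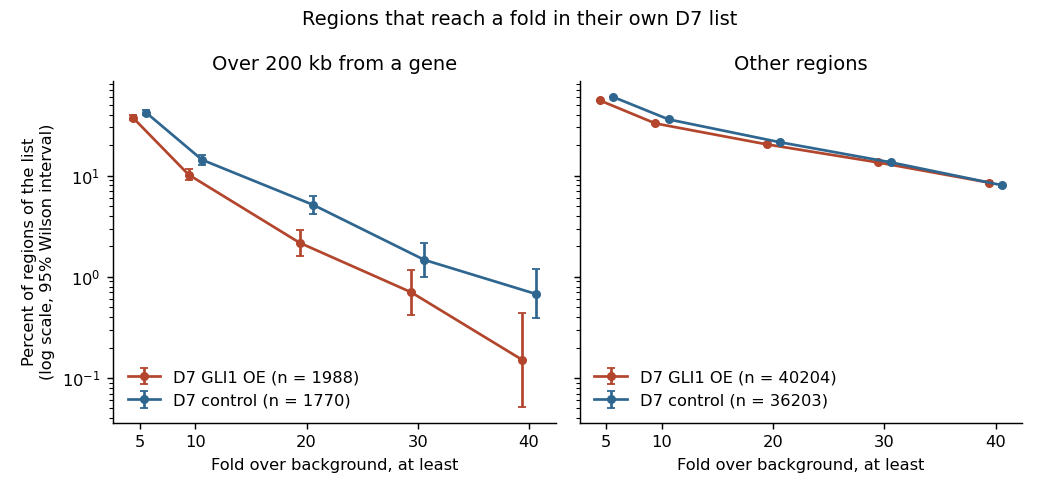
Percent of remote regions (left) and of other regions (right) that reach a fold over background of 5, 10, 20, 30 or 40 in the D7 GLI1 OE (red) and D7 control lists (blue), log scale, with 95% Wilson intervals. At a fold of 20 the remote regions stand at 2.16% and 5.14%, and other regions at 20.4% and 21.4%.

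Among the 9 strong regions without a D7 control region, the one between Sox11, a neural and mesenchymal transcription factor gene, and Dcdc2c had the highest fold. It lay at chromosome 12, 27786568 to 27787648, 444 kb from Sox11, with a fold of 36.5 in the D7 GLI1 OE list, no D7 control region and 11.0 at D5. Only 1 other of the 9 had a D5 region, at chromosome 8, 103378277 to 103379247 between Cdh11 and Cdh5, with 20.2 in D7 GLI1 OE and 4.80 at D5. The next highest was between Mmadhc and Rnd3, which encodes a small GTPase, at chromosome 2, 50795989 to 50797622 inside the lncRNA gene Gm32232, with a fold of 33.2. The remaining 6 had folds from 20.4 to 28.1 and included 1 between Myc and Gsdmc (chromosome 15, 62527810 to 62528612, fold 20.5).

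The most significant remote regions present in both D7 lists differed in which list had the higher fold. The region of Gm26901, between Pcmtd1 and Sntg1, had 67.6 in D7 GLI1 OE, 68.4 in D7 control and 12.8 at D5, and was the only one among the 8 most significant of all 3 lists. Between Eipr1 and the neural zinc finger gene Myt1l (chromosome 12, 29290769 to 29291484) the folds were 42.0 in D7 GLI1 OE, 24.5 in D7 control and 10.4 at D5. Between Twistnb and Ferd3l, which encodes a basic helix-loop-helix factor, they were 34.4 in D7 GLI1 OE, 9.001 in D7 control and 5.09 at D5 (chromosome 12, 33717141 to 33718359). Between the muscarinic receptor gene Chrm3 and Ryr2, the cardiac calcium release channel gene, the folds were 33.7 in D7 GLI1 OE and 4.14 in D7 control, with no D5 region (chromosome 13, 10598966 to 10600511). All but that of Gm26901 had higher folds in the D7 GLI1 OE list. They were taken from the 8 most significant regions of that list, a choice that favours a higher fold there. Of the same 8, the regions between Gm44812 and Mctp2 (47.6 in D7 GLI1 OE, 69.3 in D7 control) and between Gja1 and Hsf2 (36.5 and 74.5) went the other way. Higher in D7 GLI1 OE, and chosen by their fold there, were 2 regions found in all lists. They lay between Cyp7b1, an oxysterol hydroxylase gene, and Armc1 (28.8 in D7 GLI1 OE, 22.3 in D7 control, 6.19 at D5) and between the atypical cadherin gene Fat3 and Chordc1 (27.6, 14.8 and 5.78 in the same lists).

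Others had the higher fold in the D7 control list. Apart from the region beside Sox9, they were among the 8 most significant of that list, a choice that favours a higher fold there. Between Gja1, which encodes connexin 43, and Hsf2 the folds were 36.5 in D7 GLI1 OE, 74.5 in D7 control and 4.68 at D5 (chromosome 10, 56920579 to 56922295). Between the nuclear receptor corepressor gene Nrip1 and Usp25 they were 12.8 in D7 GLI1 OE and 51.1 in D7 control, inside Gm30790, with no D5 region (chromosome 16, 76762416 to 76764207). Far downstream of Myc, 723 kb from Gsdmc, they were 20.2 in D7 GLI1 OE, 48.2 in D7 control and 7.30 at D5 (chromosome 15, 63052157 to 63053553). Between Dph6 and BC052040 they were 17.9 in D7 GLI1 OE and 48.2 in D7 control (chromosome 2, 115088280 to 115089163). Between Cxcl12, a chemokine gene, and Zfp637 they were 14.4 in D7 GLI1 OE, 47.2 in D7 control and 4.18 at D5 (chromosome 6, 117427209 to 117429312). Beside Sox9, a factor of cartilage and heart valve cells, a region 223 kb from Slc39a11 had 10.5 in D7 GLI1 OE, 41.9 in D7 control and 5.69 at D5. With 1 list a group, no test of these pairs of folds is possible.

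The interval between Cdh11 and Cdh5, 2 cadherin genes of mesenchyme and endothelium, held regions of both kinds. It held 27 remote regions, of which 13 were in the D7 GLI1 OE list, 11 in the D7 control list and 15 at D5. The region at chromosome 8, 103234191 to 103235579 had a fold of 37.2 in D7 GLI1 OE and 13.5 in D7 control. The region of LOC115486959 (103481585 to 103482927), whose promoter window is printed above, had 4.56 in D7 GLI1 OE, 41.4 in D7 control and 5.35 at D5. A region at 103808219 to 103809525 had 6.67 in D7 GLI1 OE, 23.0 in D7 control and 5.18 at D5.

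The comparison of D7 control with D5 control asked how chromatin differed between days in untreated cells. Opened regions, present in D7 control and absent at D5, were 1450 of 1770 remote regions (81.9%, 80.1 to 83.6), where 55.4% of all regions of the list were opened. Closed regions, present at D5 and absent in D7 control, were 2358 of 2691 (87.6%, 86.3 to 88.8), where 50.1% of all were closed. Given the distribution of the remote ones over the 6 bins of −log10 q, other regions were opened in 68.0% and closed in 57.4% of cases. Among well supported peaks the shares were also high, though peak strength was not matched within a bin. At a −log10 q of 50 or more 143 of 198 were opened (72.2%, 65.6 to 78.0), against 14.4% of other regions, and between 20 and 50 at D5 37 of 54 were closed (68.5%, 55.3 to 79.3), against 6.12%. Of the 91 remote regions with a fold of at least 20 in D7 control 29 were in the D5 list (31.9%), against 92.2% of other regions of that fold. Against D7 GLI1 OE, 2287 of 2691 remote D5 regions were absent (85.0%, where 46.8% of all were), and 1594 of 1988 remote D7 GLI1 OE regions were absent at D5 (80.2%, where 57.3% of all were). An example is the region at chromosome 7, 70845500 to 70847102 in the Gm44812 to Mctp2 interval, with 47.6 in D7 GLI1 OE, 69.3 in D7 control and no D5 region.

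Remote regions made up 4.71% of the D7 GLI1 OE list (4.51 to 4.92), 4.66% of the D7 control list (4.45 to 4.88) and 7.03% of the D5 list (6.78 to 7.29). They were narrower than other regions in each list. The median widths of remote and other regions were 288 and 450 bp in the D7 GLI1 OE list, 313 and 491 bp in the D7 control list and 181 and 244 bp at D5. Several of the most significant D5 regions had no D7 counterpart. The highest, between Pex2 and 1700008P02Rik (chromosome 3, 5860541 to 5860840), had a fold of 37.2, and one 1035 kb from the synaptic adhesion gene Lrrc4c (chromosome 2, 98666201 to 98667354) had 8.29 with a −log10 q of 55.9. Whether such regions are at blacklisted positions was not tested. Of the 8 most significant D5 regions, 6 were absent from both D7 lists, with folds from 8.29 to 37.2, and that between Triqk and Runx1t1 was in D7 control at 3.60 and at D5 at 12.7.

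Remote regions over 750 kb from a gene were in another list less often than those at 200 to 300 kb, by these shares and with no test. Among D7 GLI1 OE regions, 39.7% of the 771 at 200 to 300 kb were in the D7 control list and 16.1% of the 205 over 750 kb, against 75.1% of those outside genes but within 10 kb. In the D7 control list 41.6% at 200 to 300 kb and 21.0% over 750 kb were in D7 GLI1 OE. Of D5 regions, 15.5% at 200 to 300 kb and 5.80% over 750 kb were in D7 control. Regions at 100 to 200 kb, which are not remote here, had shares only somewhat higher than those at 200 to 300 kb. At that distance 41.7% of D7 GLI1 OE and 17.9% of D5 regions were in D7 control, and 46.1% of D7 control regions were in D7 GLI1 OE. Low sharing is thus not particular to regions over 200 kb from a gene. Median folds were 4.56 at 100 to 200 kb, 4.39 at 200 to 300 kb and 3.69 over 750 kb in the D7 GLI1 OE list. In the D7 control list they were 4.86, 4.50 and 3.78. The part of peak strength in these shares was not tested. The farthest D7 region, in both D7 lists, lay 2188 kb from a gene between Celf4 and Pik3c3, with folds of 11.6 in D7 GLI1 OE and 6.48 in D7 control.

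The 200 kb limit separates regions of like kind. A region between Map3k1 and Ankrd55 was just inside in the D7 GLI1 OE and D7 control lists, at 200.029 and 200.031 kb, with folds of 32.8 and 22.0. One between Wdr20rt and Rpl10l was inside in D7 control at 200.013 kb with a fold of 22.5, and outside in D7 GLI1 OE at 199.996 kb with 4.74. Near Cyria and Mycn a region just outside had 2.81 in D7 GLI1 OE at 199.970 kb and 6.41 at D5 at 199.921 kb.

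Nearly all remote regions, 5197 of 5215, lay in intervals between neighbouring protein-coding genes, and 18 lay beyond the first or last gene of a chromosome. There were 737 intervals of more than 400 kb, the length at which a remote position exists, and 616 held a remote region. Without 200 kb at each end they spanned 479 Mb, or 19.7% of the genome from the first to the last gene. The density there was 4.15 regions per Mb in D7 GLI1 OE, 3.69 in D7 control and 5.58 at D5, against 20.6, 18.6 and 18.2 per Mb elsewhere. Another remote region, of the same or another list, lay within 10 kb of 35.3% of them. The median interval with any held 6. No expected share was computed, so whether the regions cluster was not tested. Gained regions outnumbered lost ones in 275 intervals and lost outnumbered gained in 191. Opened outnumbered closed in 152 and closed outnumbered opened in 386. These counts depend on how many remote regions a list has, 1988 in D7 GLI1 OE, 1770 in D7 control and 2691 at D5. With equal list lengths 980 remote regions were gained and 1116 lost, and the 737 intervals were not recounted at those lengths. Within intervals these classes are counted over the merged regions.

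The 10 intervals with the most remote regions held 374, or 7.17%. They were ranked by number and not by density. Without 200 kb at each end they held from 13.3 (Zeb2 to Acvr2a) to 40.3 (Gm44812 to Mctp2) merged regions per Mb. Over all intervals it was 10.8 per Mb. Some intervals outside the 10 were denser, as Plpp3 to Usp24 with 43.9, Med13l to Tbx3 with 41.6 and Mki67 to Mgmt with 41.1. Zeb2, a zinc finger factor of epithelial to mesenchymal transition, and Acvr2a, an activin receptor gene, bounded 44, of which 15 were in D7 GLI1 OE, 16 in D7 control and 24 at D5. Gm44812 and Mctp2 also bounded 44, with 25 in D7 GLI1 OE, 20 in D7 control and 21 at D5, and 7 in all 3 lists. Nr2f1, which encodes the nuclear receptor COUP-TFI, and Arrdc3 bounded 42. Adgrl2, a latrophilin adhesion receptor gene, had 37 on either side, toward Ttll7 and toward Adgrl4. Between Nmbr and Cited2, a coregulator needed for heart development, were 35, with 6 in all 3 lists. Tmem182 and the neural POU gene Pou3f3 bounded 34, as did Slc4a3 and the ephrin receptor gene Epha4, and Gm40892 and Flrt2. Camk1g and the semaphorin receptor gene Plxna2 bounded 33.

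The interval between Med13l, a Mediator subunit gene, and Tbx3, a T-box gene of the cardiac conduction system, had the largest excess of lost over gained regions. Of its 21 remote regions 5 were in D7 GLI1 OE, 18 in D7 control and 2 at D5, which made 1 gained, 14 lost, 18 opened and 2 closed. Over all intervals 65.2% of D7 GLI1 OE regions were gained and 61.2% of D7 control regions lost. The 4 regions of this interval in both D7 lists had lower folds in D7 GLI1 OE (4.56, 12.6, 11.8 and 6.85) than in D7 control (14.2, 25.02, 45.5 and 18.7). The interval was chosen by its lost regions in the same 2 lists, so these folds are not separate support. Remote regions in both D7 lists without D5 had median folds of 5.44 in D7 GLI1 OE and 7.38 in D7 control. The strongest of the 4, at chromosome 5, 119377854 to 119379064, was 292 kb from Tbx3. The promoter of the lncRNA gene Gm31129 lay in a region of D7 control alone with a fold of 11.2 (119133066 to 119133897). Lost regions also prevailed between Auts2 and Castor2 (2 gained, 12 lost), between Thap1 and Zfp703, which encodes a zinc finger corepressor (2 and 9), between Tmem182 and Pou3f3 (4 and 10) and between A1bg and Myc (0 and 6). In the last of these, 12 regions included one at chromosome 15, 61552764 to 61553753 with 5.62 in D7 GLI1 OE and 20.3 in D7 control.

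**Figure D4:**
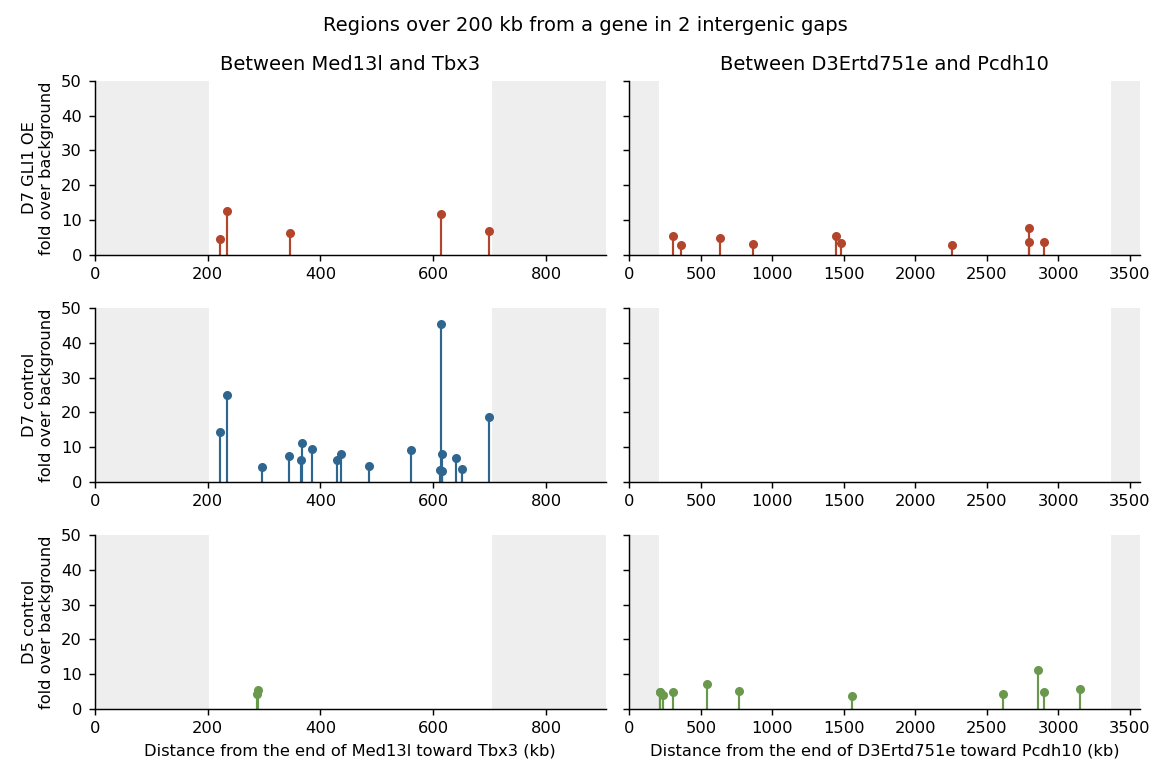
Remote regions along 2 intergenic intervals, by distance from the left gene in kb (horizontal) and fold over background (vertical), in D7 GLI1 OE, D7 control and D5 control; grey marks the 200 kb next to each gene. Between Med13l and Tbx3 D7 GLI1 OE has 5 regions and D7 control 18; between D3Ertd751e and Pcdh10 D7 GLI1 OE has 10 and D7 control 0.

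The 5 intervals with the largest excess of gained over lost regions were the following. Between Hs3st1, a heparan sulfate sulfotransferase gene, and Rab28 were 20 remote regions, 14 in D7 GLI1 OE, 2 in D7 control and 8 at D5, with 13 gained and 1 lost. The D7 GLI1 OE folds there ran from 2.63 to 7.90. Between D3Ertd751e and the protocadherin gene Pcdh10, 10 were in D7 GLI1 OE, 0 in D7 control and 11 at D5, and 1 of the 10 was also at D5, at chromosome 3, 42111056 to 42111345, with 5.44 in D7 GLI1 OE and 4.76 at D5. Between Stxbp6 and the neuronal splicing gene Nova1, 10 were in D7 GLI1 OE, 1 in D7 control and 11 at D5. Between the teneurin gene Tenm3 and Aga the counts were 10, 1 and 7, and beside Flrt2, a gene of axon guidance, 15, 7 and 14. No remote region of the D7 GLI1 OE list in these 5 intervals had a fold above 9.13. With a −log10 q of at least 5 gained minus lost was 7 in place of 12 in Hs3st1 to Rab28, 5 in place of 10 in D3Ertd751e to Pcdh10 and 3 in place of 9 in Tenm3 to Aga, and equal list lengths also gave 3 in the last.

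**Figure D5:**
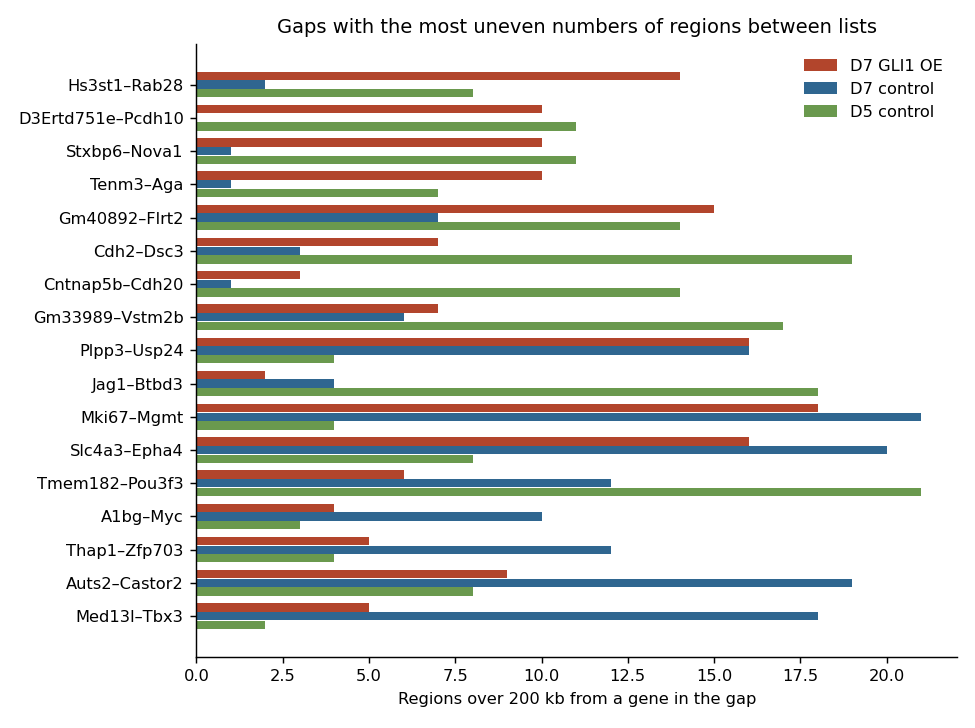
Number of remote regions per list in the intergenic intervals with the largest and smallest gained minus lost and opened minus closed counts, ordered by gained minus lost. The Hs3st1 to Rab28 interval at the top has 14, 2 and 8 regions in D7 GLI1 OE, D7 control and D5 control, and the Med13l to Tbx3 interval at the bottom 5, 18 and 2.

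Opened regions prevailed between Mki67, a gene of dividing cells, and the DNA repair gene Mgmt, with 21 opened and 4 closed of 32. There 18 were in D7 GLI1 OE, 21 in D7 control and 4 at D5. All 21 D7 control regions were thus opened and all 4 D5 regions closed. Over all intervals 81.8% of D7 control regions were opened and 88.0% of D5 regions closed. The excess of opened regions therefore goes largely with the number of regions each list held there. A region at chromosome 7, 136058773 to 136060269 had 6.49 in D7 GLI1 OE and 38.7 in D7 control, and one at 136502055 to 136503379 had 7.37 and 28.6. The Med13l to Tbx3 interval came next, then Slc4a3 to Epha4 (17 opened, 5 closed), the lipid phosphatase gene Plpp3 to Usp24 (16 and 4) and Auts2 to Castor2 (18 and 7).

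Closed regions prevailed in the intervals Cdh2 to Dsc3 (2 opened, 18 closed), the Notch ligand gene Jag1 to Btbd3 (3 and 17), Cntnap5b to Cdh20 (1 and 14) and Gm33989 to Vstm2b (6 and 17). Cdh2, Dsc3 and Cdh20 encode cadherins, and Cntnap5b a contactin-associated protein. The D7 GLI1 OE list held 7, 2, 3 and 7 regions in these 4 intervals, the D7 control list 3, 4, 1 and 6, and the D5 list 19, 18, 14 and 17. Of these D5 regions 18, 17, 14 and 17 were closed, where 88.0% were closed over all intervals. With a −log10 q of at least 5 the excess of closed regions was smaller, and the opened minus closed count was -6 in place of -16, -7 in place of -14, -2 in place of -13 and -3 in place of -11 in the same order.

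Few Hedgehog pathway genes flank such an interval, since 4 intervals adjoin a gene of a list of 20 and 2 held remote regions. Between Shh, the ligand gene, and Rnf32 were 9, of which 1 was in D7 GLI1 OE, 5 in D7 control and 4 at D5, so 0 were gained and 4 lost. The region in both D7 lists, at the promoter of Gm35688 (chromosome 5, 28903551 to 28904232), had 6.49 in D7 GLI1 OE and 5.40 in D7 control, and the 4 lost regions had folds from 2.70 to 3.78. With a −log10 q of at least 5 gained minus lost was -1 here, in place of -4. Between AW209491 and Gli3, a GLI factor gene, were 6 regions, with 1 gained and 1 lost. A region at chromosome 13, 15209025 to 15210188, 254 kb from Gli3, had 6.14 in D7 GLI1 OE and 20.3 in D7 control. Over the Hedgehog intervals together 5 of 8 D7 control regions were lost (62.5%), close to the 61.2% over all intervals. Of their 4 D7 GLI1 OE regions 1 was gained, where 65.2% were over all intervals. These counts are too small to set the Hedgehog intervals apart from the others. 

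Forkhead factor genes bounded 7 intervals with 44 remote regions, 18 in D7 GLI1 OE, 11 in D7 control and 23 at D5. Of these 14 were gained and 7 lost; these are 77.8% of the D7 GLI1 OE and 63.6% of the D7 control regions, against 65.2% and 61.2% over all intervals. The interval of Foxa2, a factor of endoderm and floor plate, toward Pax1 had 1 region in D7 GLI1 OE, 0 in D7 control and 5 at D5. Foxo1 to Cog6 had 3 gained and 2 lost, Exoc2 to Foxq1 0 and 0, and Gm765 to Foxp1 1 and 0.

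Cardiac and second heart field genes bounded 22 intervals with 127 remote regions, 37 in D7 GLI1 OE, 50 in D7 control and 64 at D5, with 22 gained and 35 lost. These are 59.5% of the D7 GLI1 OE and 70% of the D7 control regions, against 65.2% and 61.2% over all intervals. Without the Med13l to Tbx3 interval 21 were gained and 21 lost. Between Cetn3 and Mef2c, a cardiac MADS-box factor gene, 8 were gained and 3 lost, though the strongest D7 region there was a lost one with a fold of 17.1 (chromosome 13, 82984695 to 82985742). Isl1, a marker of second heart field progenitors, had 10 regions toward Itga1, of which 6 were at D5 alone, and 2 toward Parp8, both at D5 alone. Beside Gata6 a region 267 kb away was in all lists, with 27.2 in D7 GLI1 OE, 14.8 in D7 control and 6.85 at D5. Toward Fbxo8, Hand2 had 4 regions, all at D5 alone, and Osr1 had 7 of 9 at D5 alone toward Nt5c1b. Over the cardiac intervals together 55 of 127 regions were at D5 alone (43.3%, 35.0 to 52.0), close to the 41.7% over all intervals.

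The other cardiac intervals held 8 or fewer regions each. Those of Meis1 had 8 toward Spred2 (1 gained, 1 lost) and 6 toward Etaa1 (0 and 3). Ddhd1 to the signal gene Bmp4 had 8 (2 and 2), Irx2 to Irx4 had 5 (2 and 1) and Ttc32 to Osr1 had 4 (1 and 2). Meis2 to Tmco5 had 3 (0 and 2), Hey2 to Hddc2 3 (0 and 0), Tbx18 to Nt5e 2 (0 and 1) and the growth factor gene Fgf10 to Nnt 2 (1 and 1). The intervals of Eya1 toward Xkr9, Mef2c toward Tmem161b and Zfpm2 toward 9330182O14Rik had 1 region each, at D5 alone. These counts are too small to order the genes.

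Gene lists among the flanking genes differed in how many remote regions were shared. Intervals beside 43 other developmental transcription factor genes, of 74 listed, held 525 regions, of which 6.48% (4.67 to 8.91) were in all 3 lists and 36.4% (32.4 to 40.6) at D5 alone. Intervals beside 75 of 104 listed adhesion, axon guidance and synapse genes held 1069, with 2.62% (1.82 to 3.76) in all 3 lists and 47.9% (44.9 to 50.9) at D5 alone. Over all intervals it was 4.35% and 41.7%. The densities differed too, at 7.13 per Mb in D7 GLI1 OE, 7.54 in D7 control and 8.70 at D5 beside the transcription factors, against 2.55, 2.08 and 4.26 beside the adhesion genes and 4.08, 3.66 and 5.53 over all intervals. Without 200 kb at each end, the 103 intervals beside adhesion genes spanned 138 Mb and the 50 beside the transcription factors 29.3 Mb. The part of interval length in these differences was not tested. Intervals beside secreted signals and receptors had 54.8% of 146 regions at D5 alone. Neural progenitor factors had 35 gained and 26 lost of 150 regions, mesoderm and pluripotency factors 13 and 11 of 54, and endothelial and blood regulators 10 and 7 of 45. The developmental factors had 113 gained and 125 lost, the adhesion genes 270 and 206, and the signals 29 and 23. As shares of the D7 GLI1 OE and D7 control regions these are 54.1% and 56.6% for the developmental factors, 76.9% and 71.8% for the adhesion genes and 67.4% and 62.2% for the signals. They are 58.3% and 51.0% for the neural factors, 68.4% and 64.7% for the mesoderm and pluripotency factors and 47.6% and 38.9% for the endothelial and blood regulators. Over all intervals 65.2% were gained and 61.2% lost. Housekeeping genes bounded 0 intervals of this length. No list was tested, and an interval can adjoin genes of more than 1 list.

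Part of the remote regions were inside non-coding genes. The same shares were not counted for other regions, so they do not set remote regions apart. A lncRNA gene contained 839 (16.1%), and the share was 28.2% for regions in all 3 lists, 18.7% for those in both D7 lists without D5, 15.3% in D7 GLI1 OE alone, 16.2% in D7 control alone and 14.2% at D5 alone. Of the 118 regions with a fold of at least 20 in either D7 list, 26 were inside a lncRNA gene. Only 412 (7.90%) lay over 200 kb from a gene of every type. Of the 62 regions at a promoter window 13 were in all 3 lists, 11 in both D7 lists without D5, 10 in D7 GLI1 OE alone, 9 in D7 control alone and 13 at D5 alone. At the start of Gm31830, between Rragc and Pou3f1, the folds were 23.7 in D7 GLI1 OE and 10.8 in D7 control.

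MicroRNAs are cut from hairpin transcripts and bind target RNAs mainly through their seed, bases 2 to 8. Of 919 hairpins on these chromosomes 44 lay over 200 kb from a protein-coding gene, and 6 of them had a remote region within 2 kb. The microRNAs of 2 intervals are shown because promoters of Mir99ahg and Mir100hg are printed above and because 2 of them share a seed, marked in capitals (RefSeq, GRCm38.p6).
mmu-miR-99a-5p: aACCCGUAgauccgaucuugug
mmu-let-7c-5p: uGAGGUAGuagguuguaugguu
mmu-miR-100-5p: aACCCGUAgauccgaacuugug
mmu-miR-125b-5p: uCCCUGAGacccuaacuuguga
The first and the third have the seed ACCCGUA in common. Mir99a and Mirlet7c-1 lie between Usp25 and Cxadr, beyond the end of Mir99ahg in the annotation used, where 17 remote regions included 8 in D7 GLI1 OE, 8 in D7 control and 9 at D5. The promoter of Mir99ahg there had 8.95 in D7 GLI1 OE and 17.1 in D7 control, with no D5 region (chromosome 16, 77328782 to 77330360). Mir100, Mirlet7a-2 and Mir125b-1 lie between Ubash3b and Gm40514, where 8 regions included 4 in each D7 list and 1 at D5. An annotated promoter of Mir100hg had a region in D7 GLI1 OE alone, with a fold of 8.07 (chromosome 9, 41474659 to 41474959). A region 349 bp from the hairpin of Mir125b-1 had 6.85 in D7 GLI1 OE and 9.54 in D7 control. The 3 hairpins that overlapped a remote region were of the Mir344 family between Gm51483 and Ndn, and that of Mir344-2 had 5.97 in D7 GLI1 OE, 4.32 in D7 control and 8.55 at D5.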

How the data were processed

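ATAC-seq peak lists of 3 groups were used, 1 pooled list a group. Reads were aligned with Bowtie2 2.3.2 and handled with SAMtools 1.5 and Picard, and peaks were called with MACS2 2.1.1 on mm10, per the submitters' processing notes. For each peak the authors deposited a fold over the caller's background, a −log10 p and −log10 q, a score that is the −log10 q times 10 cut to a whole number, and the summit's offset. That the untreated list without a day in its name is D7 control was inferred from its pairing with the doxycycline list. Read depth per library is not given in the sources used here.

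Within each list, peaks that overlapped were joined to regions, which were placed by their strongest summit against RefSeq GRCm38.p6 protein-coding genes. Presence in another list required an overlap of 1 base. Shares have 95% Wilson intervals. Python 3.11.15, pandas 2.3.3, numpy 2.4.6, scipy 1.17.1 and matplotlib 3.10.9 were used, and the steps were tested on simulated lists. Named genes flank the 10 intervals with the most remote regions, and the 5 with the largest and 5 with the smallest gained minus lost and opened minus closed counts. They also flank the 8 most significant regions of each list, at most 1 from an interval, and the 8 in all lists with the highest D7 GLI1 OE fold. The regions at the 200 kb limit and the intervals of the Hedgehog, forkhead and cardiac lists were named too. The regions and lists were chosen with earlier results of these data known. The Cdh11 to Cdh5 and Sox9 intervals, the strong regions absent from a D7 list, the promoters and the microRNAs were chosen after their values were seen. Alternatives were other peak thresholds, distances, annotations, overlaps, list lengths and units. Some named intervals and regions are not reported here.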

Additional observations from a re-analysis of the deposited data

How the results depend on the processing

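No paired analysis was possible because the lists pool the libraries of a group, which also bars leaving out single libraries. Requiring a −log10 q of at least 5 gave remote shares of 3.96% in D7 GLI1 OE, 4.03% in D7 control and 5.55% at D5, folds of at least 20 in 3.27% of D7 GLI1 OE and 7.48% of D7 control remote regions, 59.2% gained, 56.7% lost, 87.3% opened and 78.3% in 1 list. A limit of 100 kb gave shares of 8.78%, 8.69% and 12.1% in the same order, folds of at least 20 in 3.16% of D7 GLI1 OE regions, 61.5% gained, 57.5% lost, 85.3% closed, 5.12% in all 3 lists and 79.7% in 1. A limit of 500 kb gave shares of 1.21%, 1.12% and 2.17%, folds of at least 20 in 1.17% and 3.30%, 73.8% gained, 68.9% lost, 91.0% closed, 3.26% in all 3 lists and 86.3% in 1. Counting genes of every biotype gave shares of 0.344%, 0.303% and 0.549%, folds of at least 20 in 1.38% of D7 GLI1 OE regions, 75.9% gained, 69.6% lost, 89.6% opened, 94.3% closed, 1.46% in all 3 lists and 87.4% in 1. Fewer regions remain under these rules by construction. Equal list lengths gave a D7 GLI1 OE share of 4.33%, 59.6% gained and 63.1% lost, and unmerged peaks gave shares of 3.64%, 3.58% and 5.91%. Under the −log10 q limit the opened minus closed count turned to 2 in Gm44812 to Mctp2 and in Adgrl2 to Adgrl4, and to 1 in Ttll7 to Adgrl2, Tmem182 to Pou3f3, Exoc2 to Foxq1, Itga1 to Isl1 and Irx2 to Irx4. The gained minus lost count turned to 1 in Slc4a3 to Epha4, to -3 in Gm33989 to Vstm2b and to -1 in Foxo1 to Cog6 under that limit, and with equal lengths to -2 in Nr2f1 to Arrdc3 and Gm33989 to Vstm2b. Without turning, opened minus closed moved from -8 to -1 in Zeb2 to Acvr2a and from -10 to -4 in Camk1g to Plxna2, and gained minus lost from -7 to -4 in Thap1 to Zfp703, from -4 to -1 in Nmbr to Cited2 and from 5 to 2 in Cetn3 to Mef2c under the −log10 q limit. The cause was not tested. The depth of the libraries and the spread between them limit all counts by an unknown amount.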
